A study of Mus musculus with 4 samples.

Results

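The 10 genes described here encode the core enzymes that remove superoxide and peroxides in mouse cells: the superoxide dismutases Sod1 and Sod2, the catalase Cat, the glutathione peroxidases Gpx1 and Gpx4, and the peroxiredoxins Prdx1, Prdx2, Prdx3, Prdx5 and Prdx6. They were chosen by name, and every row of the deposited transcript table that carries the gene ID of a member was summed. All 10 genes were found among the 17374 genes of the table, and they hold 16 of its 45505 transcripts. Mouse oocytes at the germinal vesicle (GV) stage, that is, arrested before the first meiotic division, were sequenced in bulk as polyadenylated RNA. The females were at postnatal day 16, had not been primed with hormones and were of a C57/Bl6/DBA2J F1 hybrid background. Cumulus cells had been stripped and the zona pellucida removed from every pool, and oocytes of both conditions were held in milrinone, which blocks meiotic resumption, under 5% CO2 and 5% O2. Control 1 and control 2 were not irradiated, whereas irradiated 1 and irradiated 2 received 5 Gy of γ-irradiation from a cesium source and were collected 24 h later.

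The study's methods give 59 oocytes per condition and 2 independent experimental replicates, and do not say whether the 59 were divided between libraries. The series description says that oocytes kept in milrinone medium were sequenced either directly or after irradiation, and gives no culture time for the controls, so time in culture and irradiation cannot be told apart. Each library is a pool, in which fewer oocytes and less RNA per oocyte cannot be told apart either. Estimated counts summed to between 33349466 and 37232818 per library. Irradiated 2 stood apart from the rest: its median absolute log2 distance from the other 3 libraries was 0.285, against 0.129 to 0.143 for each of the others, and its TMM factor, edgeR's correction of library size for composition, was 1.19 against 0.923 to 0.975. All 12 oocyte markers were listed, with summed levels of 32289 and 33756 TPM (a level corrected for transcript length) in the controls and 35164 and 32453 TPM in the irradiated libraries. Granulosa and cumulus markers summed to 16.9 and 19.3 TPM in the controls and to 16.9 and 22.5 TPM after irradiation. Of the 12 granulosa and cumulus genes, 10 were listed, and 3 of these had no more than 3 counts in any library. The part that residual somatic cells played in the results was not tested.

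Superoxide, formed mainly as electrons leak from the respiratory chain, is converted to hydrogen peroxide by superoxide dismutases, SOD1 in the cytosol and SOD2 in the mitochondrial matrix. Hydrogen peroxide is then removed by catalase in peroxisomes, by glutathione peroxidases at the expense of glutathione, and by peroxiredoxins, most of which are regenerated by thioredoxin. Ionizing radiation splits water into reactive species, and a growing oocyte stores long-lived messenger RNA for use after meiosis resumes.

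The glutathione peroxidases and peroxiredoxins share a chemistry in which 1 reactive residue attacks the peroxide, and the codon for that residue is shown here because it separates the families whose levels are compared next. Each line gives 45 bases of coding sequence, 5′ to 3′ on the coding strand, from GENCODE M21 transcripts on GRCm38, with the codon of the reactive residue in capitals.
Gpx1: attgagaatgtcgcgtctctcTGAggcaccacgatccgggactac
Gpx4: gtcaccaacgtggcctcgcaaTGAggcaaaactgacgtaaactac
Prdx1: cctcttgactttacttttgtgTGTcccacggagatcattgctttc
Prdx2: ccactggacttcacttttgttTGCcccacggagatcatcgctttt
Prdx3: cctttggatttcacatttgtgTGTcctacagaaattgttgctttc
Prdx5: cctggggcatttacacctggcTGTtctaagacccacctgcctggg
Prdx6: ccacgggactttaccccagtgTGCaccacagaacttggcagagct

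In Gpx1 and Gpx4 the capitals mark TGA, a stop codon that is read as selenocysteine when a hairpin in the same messenger RNA recruits the insertion machinery. In the 5 peroxiredoxins they mark a cysteine codon, TGT or TGC. The Gpx1 window lies in exon 1 of 2, at codon 47 of 201 (chr9:108339430-108339474, plus strand), and the Gpx4 window in exon 3 of 7, at codon 73 of 197 (chr10:80054716-80054760, plus strand). These Gpx4 positions are those of transcript NM_008162, which held 11.4% to 20.3% of the Gpx4 counts. Positions in NM_001367995.1, which held 79.6% to 88.6%, were not read. The windows of Prdx1 (chr4:116691802-116691846, plus strand, codon 52 of 199) and Prdx2 (chr8:84970462-84970506, plus strand, codon 51 of 198) both lie in exon 3 of 6. The Prdx6 window lies in exon 2 of 5, at codon 47 of 224 (chr1:161247347-161247391, minus strand), in NM_007453.4, which held 34.0% to 55.4% of the Prdx6 counts. In Prdx3 (chr19:60870106-60871430, minus strand, codon 109 of 257) and Prdx5 (chr19:6907659-6908011, minus strand, codon 96 of 210) an intron interrupts the window. Prdx1 and Prdx2 were identical at 38 of the 45 bases and Prdx1 and Prdx3 at 35, whereas Prdx1 was identical to Prdx6 at 23 and to Prdx5 at 21. Gpx1 and Gpx4 were identical at 25.

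Likeness between members did not extend to stretches as long as a read. Among the 45 pairs of members, 0 shared a window of 100 bases, the length of a read. Some members share such windows with other genes: 25.2% of the windows of Gpx4 occur also in 2 pseudogenes, 12.8% of those of Sod2 in AC166110.4 and Rps6ka2, and 1.94% or less of those of Prdx2, Prdx1 and Sod1 in pseudogenes. Totals of Gpx4 and Sod2 are therefore uncertain to the extent that reads could be shared with these genes.

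The oocytes carried the antioxidant enzymes at very unequal levels. Sod1, Prdx1 and Prdx2 together made up 97.9% and 97.8% of the TPM of the 10 genes in the controls and 97.5% and 96.5% in the irradiated libraries. Summed over the 10 genes, the level was 14777 and 14425 TPM in the controls and 14364 and 12870 TPM after irradiation, or 1.48%, 1.44%, 1.44% and 1.29% of each library.

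Of the superoxide dismutases, Sod1 (chr16:90220762-90226333) was the highest of the 10 genes and ranked 23 among all 17374 by mean TPM. Its level was 6142 and 5872 TPM in the controls and 6442 and 5236 TPM in the irradiated libraries. The irradiated libraries lay on both sides of the controls. Sod2 (chr17:13007839-13018119), which encodes the mitochondrial enzyme, had 18.96 and 19.3 TPM in the controls and 20.04 and 25.9 TPM after irradiation. Mean TPM of Sod1 was 281 times that of Sod2, and between 202 and 324 times in single libraries.

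Cat (chr2:103453904-103485153) was close to undetected. It had 10 and 9 estimated counts in the controls and 10 and 9 in the irradiated libraries, equal to 0.15, 0.16, 0.17 and 0.16 TPM. Each condition thus holds 19 counts, with an exact Poisson 95% interval of 11.4 to 29.7 that covers counting error only. Catalase, the peroxisomal enzyme that needs no reducing partner, ranked 12608 of 17374 genes, and the mean TPM of Sod1 was 37018 times its own.

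The glutathione peroxidases were of intermediate level. Gpx4 (chr10:80047166-80056439), which reduces lipid peroxides within membranes, had 164 and 168 TPM in the controls and 191 and 249.8 TPM in the irradiated libraries. Gpx1 (chr9:108339080-108340342), the cytosolic enzyme for soluble peroxides, had 28.2 and 26.1 TPM in the controls and 25.8 and 38.8 TPM after irradiation. Gpx4 was 6.50 times as high as Gpx1 by mean TPM, and between 5.79 and 7.41 times in each library.

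The peroxiredoxins covered the widest span of any family. Prdx1 (chr4:116685599-116700000), a cytosolic and nuclear enzyme, had 5678 and 5634 TPM in the controls and 5046 and 5124 TPM after irradiation, and ranked 26 among all genes. Prdx2 (chr8:84969622-84974811), its closest relative by the windows shown, had 2640 and 2599 TPM in the controls and 2524 and 2055 TPM after irradiation. For both genes each irradiated library lay below both controls on this scale. Prdx1 was 2.19 times as high as Prdx2 by mean TPM, and between 2.00 and 2.49 times in each library.

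The remaining peroxiredoxins were far lower. Prdx5 (chr19:6906697-6910106), found in mitochondria, peroxisomes and cytosol, had 64.5 and 63.6 TPM in the controls and 74.9 and 94.8 TPM after irradiation. Prdx3 (chr19:60864066-60874538), the mitochondrial form with a window close to that of Prdx1, had 31.96 and 33.3 TPM in the controls and 29.97 and 31.8 TPM after irradiation. Prdx6 (chr1:161240112-161251210), the form that works with a single reactive cysteine and glutathione, had 8.99 and 9.72 TPM in the controls and 11.2 and 14.2 TPM after irradiation. Levels of Prdx5 and Prdx6 lay higher in both irradiated libraries and those of Prdx3 lower in both. The order by mean TPM was Sod1, Prdx1, Prdx2, Gpx4, Prdx5, Prdx3, Gpx1, Sod2, Prdx6 and Cat. The ranges over the 4 libraries overlapped between Sod1 and Prdx1, between Prdx3 and Gpx1 and between Gpx1 and Sod2, and every other neighbouring pair was separated. Within single libraries, Sod1 lay above Prdx1 and Gpx1 above Sod2 in all 4, whereas Gpx1 lay above Prdx3 in irradiated 2 and below it in the others.

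**Figure D1:**
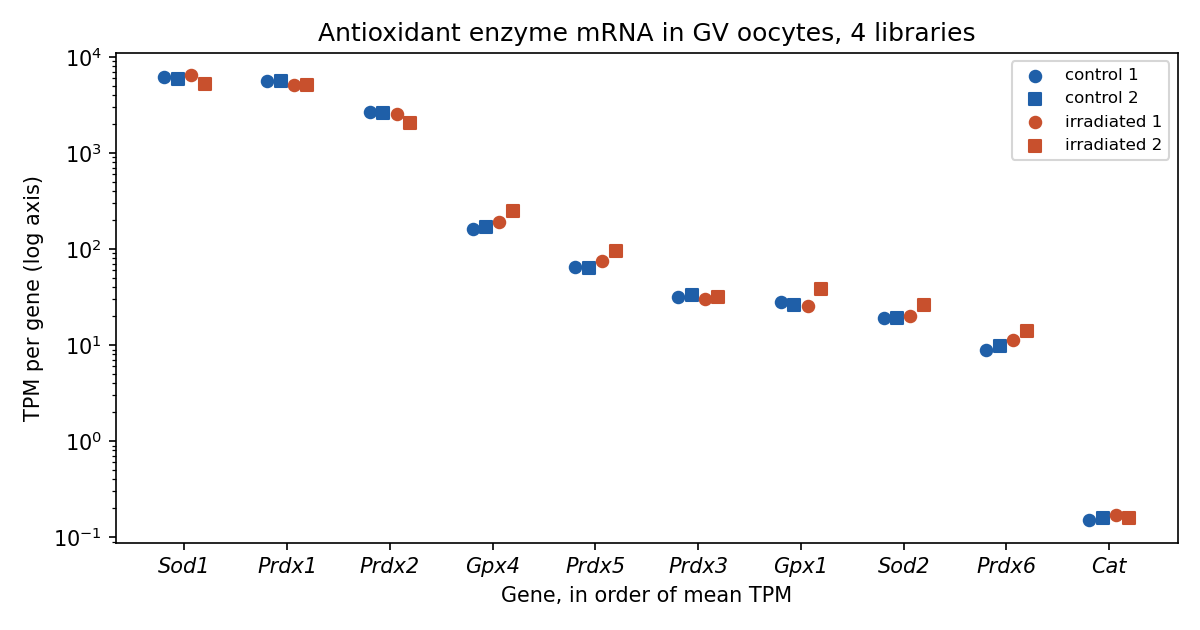
Level of each antioxidant gene in TPM (log axis, summed over its transcripts), with 1 point for each of the 2 control and 2 irradiated libraries. Sod1, Prdx1 and Prdx2 lie between 2055 and 6442 TPM, Cat lies between 0.15 and 0.17 TPM, and the spread between libraries is small beside the distance between most genes.

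To determine whether irradiation was followed by a change in these transcripts, gene totals of estimated counts were compared with edgeR's quasi-likelihood test, scaled by TMM and adjusted over all genes tested. Of the 10 genes, 9 passed the filter on low counts, and 0 were called, where a call needs both an adjusted p under 0.05 and a change of more than 2 log2 units in either direction. Over all genes, 0.00796% were called, which is 1 of 12569, Fermt1. At an unadjusted p under 0.05 there were 0 of the 9 members against 5.92% of all genes tested. In 3 members both irradiated libraries lay above both controls, against 22.1% of all genes, and in 3 both lay below, against 19.9% of all genes. The median log2 fold change of the 9 was 0.0056 and that of all genes 0.0102, while the median of its absolute size was 0.18 for the members and 0.19 for all genes. DESeq2 likewise called 0 members.

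Among the 9 tested members, the 3 of highest level had the widest intervals. Prdx2 had 2648 and 2463 TMM-scaled CPM (counts scaled to a common library size) in the controls and 2428 and 1496 in the irradiated libraries. The low value of irradiated 2 carried most of the difference. The log2 fold change of Prdx2 was -0.38 ± 0.32 (SE, n = 2 per condition), with a 95% interval from -1.13 to 0.37 and an edgeR adjusted p of 0.738. Prdx1 had 5560 and 5213 CPM in the controls and 4742 and 3644 CPM after irradiation, a log2 fold change of -0.36 ± 0.32 (edgeR adjusted p = 0.741). Sod1 had 2193 and 2012 CPM in the controls and 2244 and 1384 CPM after irradiation. Its irradiated libraries thus lay above and below the controls, and the log2 fold change was -0.21 ± 0.31 (edgeR adjusted p = 0.830). Intervals of this width allow a fall by more than 1 log2 unit for Prdx1 and Prdx2 and no change alike.

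Among the lower members, Prdx3 had the smallest p. It had 32.0 and 31.5 CPM in the controls and 28.8 and 23.1 CPM in the irradiated libraries, a log2 fold change of -0.29 ± 0.15 with an interval from -0.65 to 0.0633 (edgeR adjusted p = 0.708). Its irradiated libraries were both lower, but the interval includes 0. Sod2, of the same compartment as Prdx3, had 55.0 and 52.6 CPM in the controls, 55.4 and 54.0 CPM after irradiation, and a log2 fold change of 0.0240 ± 0.13 (edgeR adjusted p = 0.953). The difference between Prdx3 and Sod2 was not tested.

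Gpx4, Prdx5 and Prdx6 lay higher in both irradiated libraries. Gpx4 had 80.3 and 78.0 CPM in the controls and 90.1 and 89.0 CPM after irradiation, a log2 fold change of 0.18 ± 0.13 with an interval from -0.14 to 0.49 (edgeR adjusted p = 0.728). Prdx5 had 55.6 and 51.9 CPM in the controls and 62.1 and 59.5 CPM after irradiation, with a log2 fold change of 0.18 ± 0.13 (edgeR adjusted p = 0.727). Prdx6 had 13.6 CPM in each control and 15.8 and 14.6 CPM after irradiation, with a log2 fold change of 0.16 ± 0.13 (edgeR adjusted p = 0.736). For these 3 genes the libraries of the conditions did not overlap, but each edgeR interval, which draws its spread from all genes, included 0. Gpx1 had 19.3 and 16.9 CPM in the controls and 16.9 and 19.3 CPM after irradiation, so that both conditions covered the same range, and its log2 fold change was 0.0056 with an interval from -0.34 to 0.35. Cat failed the filter on low counts. In the fit without that filter its log2 fold change was -0.14 with an interval from -1.39 to 1.12. A change by 1 log2 unit in either direction was therefore not excluded.

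**Figure D2:**
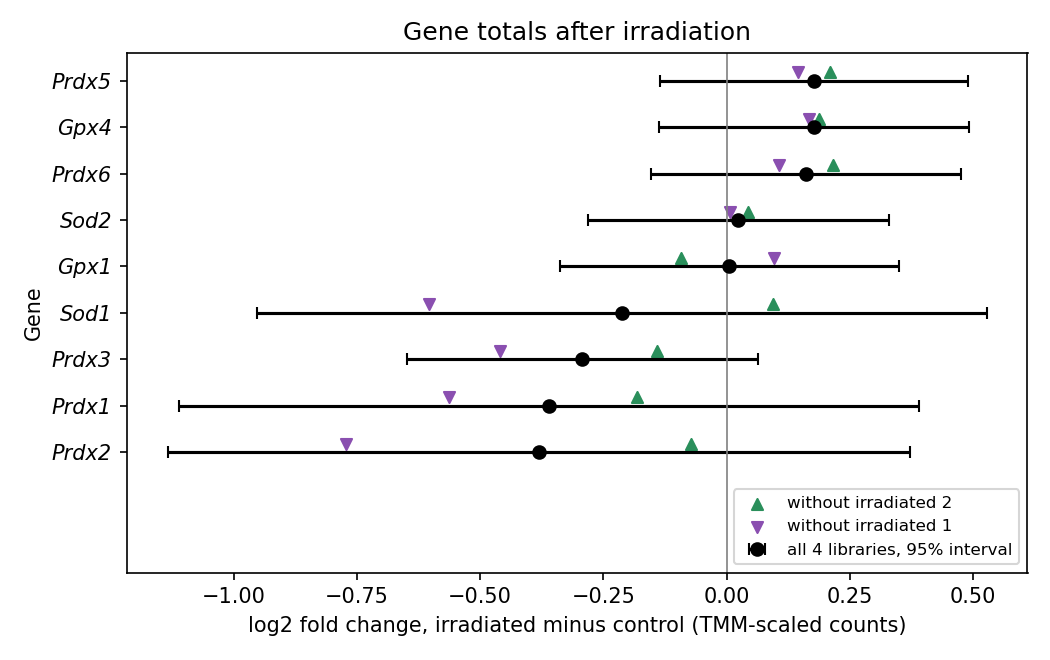
Log2 fold change of each tested antioxidant gene, irradiated minus control, from TMM-scaled counts in edgeR. Black points and bars give the estimate and 95% interval from all 4 libraries, and triangles the estimate without irradiated 2 (upward) or without irradiated 1 (downward). All 9 intervals include 0, and Sod1 moves from -0.60 to 0.0952 with the library left out.

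The values of Sod1, Prdx1, Prdx2 and Prdx3 depended on which irradiated library was used. Without irradiated 2, the log2 fold changes were 0.0952 for Sod1, -0.18 for Prdx1, -0.0722 for Prdx2 and -0.14 for Prdx3. Without irradiated 1 they were -0.60, -0.56, -0.77 and -0.46, and these 4 members then had an edgeR adjusted p under 0.05, as had 4431 genes in that fit. A single irradiated library was there assumed to vary like the controls, and 0 members passed the limit on fold change. Some of the 12 oocyte markers also differed in irradiated 2. Zp2 was at 1937 TPM against 4115 to 4452 in the other libraries, and Ooep at 1595 against 3889 to 3994. Nobox, an oocyte transcription factor, was at 1215 against 398 to 468. Other markers did not stand apart, such as Figla, at 166 against 159 to 180, and Nlrp5, at 2050.5 against 1953 to 2258. The sum of the 12 in irradiated 2, 32453 TPM, lay within the 32289 to 35164 of the other libraries. The part that the differing markers of irradiated 2 played in the values of the members was not tested.

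The scale also bears on the members that lay higher. With library size alone the median of all genes shifted from 0.0102 to 0.17, and in TPM (pseudocount 1, mean TPM of at least 1) to 0.18. Gpx4 then had a log2 fold change of 0.34 by library size and 0.40 in TPM, Prdx5 of 0.34 and 0.39, and Prdx6 of 0.32 and 0.40. Less the median of all genes, these values come near to those under TMM. Prdx1 and Prdx2 kept a negative sign on each of these scales, at -0.22 and -0.26 by library size and -0.15 and -0.20 in TPM.

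**Figure D3:**
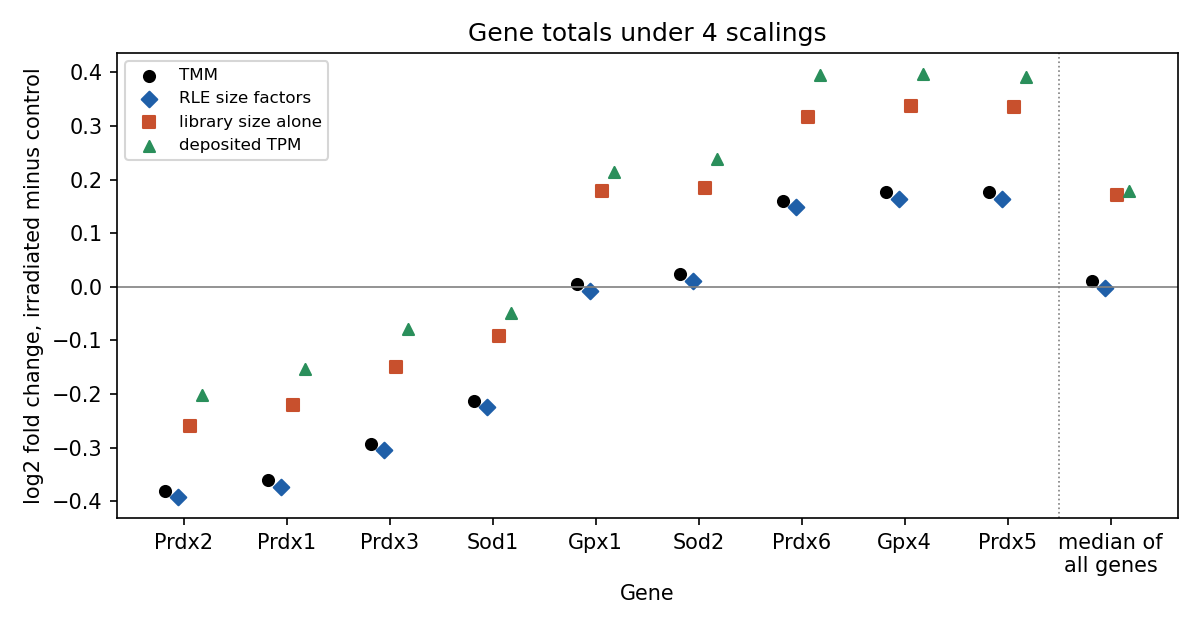
Log2 fold change of each tested antioxidant gene under 4 scalings: TMM, DESeq2 size factors (RLE), library size alone and TPM with a pseudocount of 1. The median of all genes rises from 0.0102 under TMM to 0.17 by library size alone, and the members move with it.

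Single transcripts were compared next, since a total can hide a shift between forms of a gene. Of the 16 member transcripts, 12 passed the filter and 0 were called, with 0% of all 26645 transcripts called by edgeR. At an unadjusted p under 0.05 there was 1 member transcript, against 4.9% of all transcripts. That count was 0 by library size alone, with the replicate block, without the filter and in DESeq2. Over all 26645 transcripts it was 1125 by library size alone and 690 with the replicate block. DESeq2 called 248 of all transcripts and 0 of the members'. The median log2 fold change was -0.19 over the 12 and 0.0019 over all transcripts. That 1 transcript was NM_001367995.1 of Gpx4, with 2198 and 2128 estimated counts in the controls and 2546 and 3223 after irradiation. Its log2 fold change was 0.28 ± 0.096 with an interval from 0.0083 to 0.56 (edgeR adjusted p = 0.992). Its unadjusted p was no longer under 0.05 by library size alone, with the replicate block, or with either control left out.

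Within Gpx4 and Prdx6, the share of 1 transcript was higher in both irradiated libraries than in both controls. How many of all genes hold a transcript whose share separates in this way was not counted. NM_001367995.1 held 79.6% and 83.9% of the Gpx4 counts in the controls and 85.4% and 88.6% after irradiation. The second Gpx4 transcript, NM_008162.4, held 20.3% and 16.1% in the controls and 14.6% and 11.4% after irradiation, with a log2 fold change of -0.29 ± 0.23 (edgeR adjusted p = 1). The third, NM_001037741.4, had 2.82 counts in control 1 and 0 in each other library, which is under the floor of 3 counts. In Prdx6 the predicted transcript XM_030243163.1 held 43.9% and 50.7% in the controls and 53.0% and 64.8% after irradiation, and NM_007453.4 held 55.4%, 48.3%, 46.4% and 34.0%. The estimate for XM_030243163.1 was 0.49 ± 0.19 on the log2 scale, with an interval from -0.0538 to 1.04 (edgeR adjusted p = 1).

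The shares of the Prdx2 transcripts lay closer together, though 1 was again higher in both irradiated libraries. NM_001317385.1 held 37.3% and 36.9% of Prdx2 counts in the controls and 37.9% and 39.0% after irradiation, and NM_011563.6 the remainder. Shares are given without a test. The counts had been divided among overlapping transcripts by a program before deposit, so each share carries the error of that division.

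**Figure D4:**
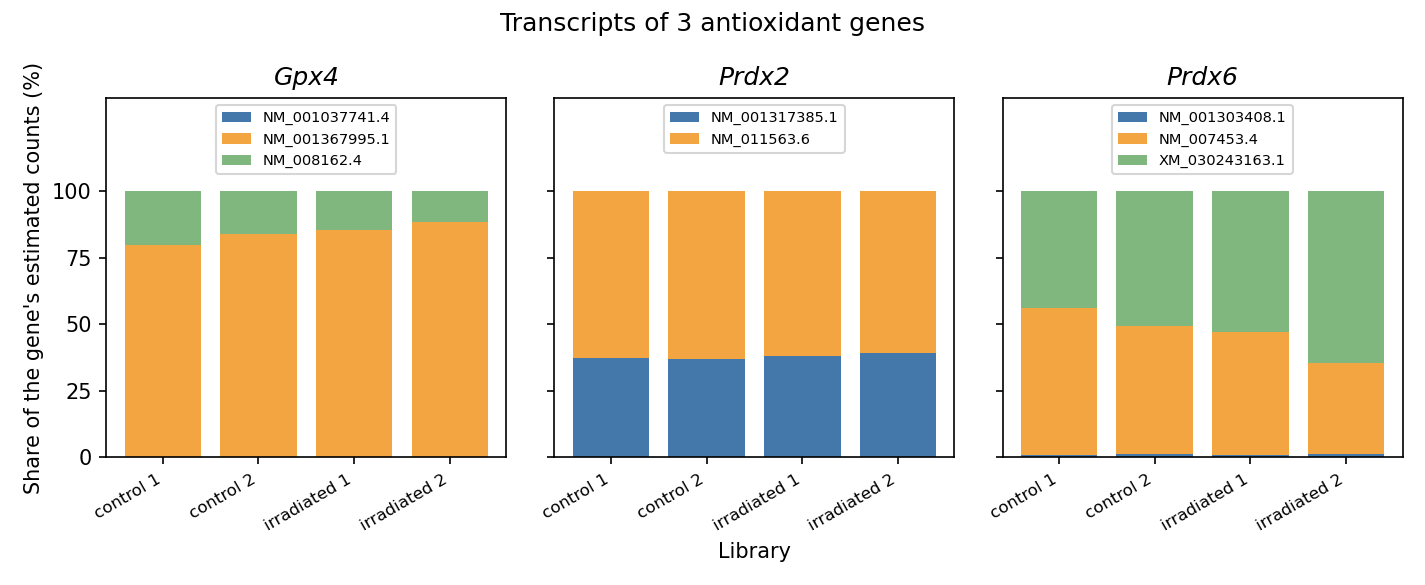
Share of the estimated counts of Gpx4, Prdx2 and Prdx6 held by each transcript, as a percentage of the gene's counts, in each of the 4 libraries. The share of NM_001367995.1 of Gpx4 runs from 79.6% to 83.9% in the controls and from 85.4% to 88.6% after irradiation, and that of XM_030243163.1 of Prdx6 from 43.9% to 50.7% and from 53.0% to 64.8%.

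The promoters were searched for the core of the antioxidant response element, the site bound by NRF2, a transcription factor that many antioxidant genes answer to. The letters searched were TGACNNNGC on either strand, in RefSeq windows on GRCm38.p6 from 250 bases before to 50 bases after each start site, and overlap with other motifs was allowed. Windows were given for 9 of the 10 members, Prdx6 being the exception. The letters occurred in 2 of the 9 (22.2%), against 15.9% of 13831 listed genes with a window and 12.4% of all 32851 windows. In Sod1 the match GCGTGGTCA began 56 bases upstream of the start site, and in Prdx1 the match GCTGAGTCA began 133 bases upstream and overlapped the AP-1 letters TGAGTCA. These 2 genes are the highest members by TPM, and their log2 fold changes have been given as -0.21 and -0.36. A match is a description of the letters and not a site of binding.

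The enzymes depend on a network that supplies thioredoxin, glutathione, NADPH, selenocysteine and peroxisomal import. Of 76 further genes in 8 lists, 74 were listed and 64 tested, and 0 were called by edgeR. At an unadjusted p under 0.05 there were 2 of the 64, against 5.92% of all genes, and both, Ccs and Pex14, were higher in both irradiated libraries. Both irradiated libraries lay above both controls for 13 of the 64, against 22.1% of all genes, and below for 12, against 19.9%. List values are under TMM, and by library size alone the negative medians of the glutathione S-transferases and of the NRF2 list turned to 0.0537 and 0.0652, still under the 0.17 of all genes.

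Ccs, the chaperone that loads copper into SOD1, had 12.6 and 10.8 TPM in the controls and 16.4 and 19.95 TPM after irradiation. Its log2 fold change from TMM-scaled counts was 0.41 ± 0.17 (edgeR adjusted p = 0.708). Leaving out control 2 gave 0.27 and leaving out control 1 gave 0.56, and the unadjusted p was no longer under 0.05 in either, nor with DESeq2 size factors. Its list of the other genes of these families had 9 members, of which 4 were tested, with a median of 0.22 on the log2 scale. Gpx3, a secreted glutathione peroxidase, had 26.0 TPM in each control and 28.7 and 56.2 TPM after irradiation (log2 fold change 0.43, edgeR adjusted p = 0.708), and the level of Gpx6 ranged from 46.5 to 71.3 TPM.

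Of the thioredoxin system all 8 genes were listed and 6 tested, with a median log2 fold change of 0.0686. Under TMM, 3 of the 6 were higher in both irradiated libraries, against 22.1% of all genes. Txn2, the mitochondrial thioredoxin that serves PRDX3, had 144 TPM in each control and 161 and 275 TPM after irradiation, a log2 fold change of 0.34 (edgeR adjusted p = 0.708). Txn1, the cytosolic thioredoxin that serves PRDX1 and PRDX2, was much lower than either enzyme, at 40.4 and 37.7 TPM in the controls and 38.1 and 33.2 TPM after irradiation. Txnip, which binds and inhibits thioredoxin, ranged from 97.8 to 123 TPM. Srxn1, which repairs over-oxidized peroxiredoxins, had 3 counts in control 1 and 2 in each other library and was at or under the floor of 3 counts.

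Glutathione synthesis and reduction was tested in all 12 genes, with a median of 0.0085 on the log2 scale. Glrx, a glutaredoxin that removes glutathione from proteins, was of the same order of level as the highest peroxiredoxins, at 3091 and 3175 TPM in the controls and 2955 and 3014 TPM after irradiation (log2 fold change -0.28, edgeR adjusted p = 0.767). Ggct, which degrades glutamyl peptides, had 1212 and 1132 TPM in the controls and 1170 and 636 TPM after irradiation, so that irradiated 2 alone was low. Glrx5, the mitochondrial glutaredoxin of iron-sulfur cluster assembly, ranged from 573 to 724 TPM. NADPH supply was tested in 5 of 6 genes (median 0.18), among them G6pdx of the pentose phosphate pathway, whose level ranged from 128 to 193 TPM, Me1 from 125 to 149 TPM, and Idh1 from 18.6 to 31.0 TPM.

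Of the glutathione S-transferases, 10 of 13 were tested, with a median of -0.0992. Under TMM, 4 lay lower in both irradiated libraries, against 19.9% of all genes. The highest were Mgst3, with 499.6 to 535 TPM, Gstm5, with 385 to 439 TPM, and Gsta4, with 294 to 362 TPM. Their log2 fold changes were -0.18, -0.34 and -0.39, and the edgeR adjusted p of each was 0.708 or more. In TPM the conditions overlapped for Mgst3, whereas Gstm5 and Gsta4 stayed lower in both irradiated libraries. In the selenocysteine list, which serves Gpx1 and Gpx4, all 7 genes were tested with a median of 0.0162, and Sephs2, Pstk and Trnau1ap had log2 fold changes of 0.19, 0.0162 and 0.23.

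The NRF2 pathway and the sestrins, which include targets of p53, were tested in all 11 genes. Their median log2 fold change under TMM was -0.10. On that scale 0 genes were higher in both irradiated libraries, against 22.1% of all genes, and 5 lower in both, against 19.9%. These 5 had between 18 and 81 estimated counts in each library, and in TPM the conditions overlapped for most of them. Nfe2l2, which encodes NRF2, had 7.32 and 8.92 TPM in the controls and 7.50 and 13.7 TPM after irradiation, and Nqo1, a common NRF2 target, had 6.16 and 5.04 TPM in the controls and 5.94 and 7.63 TPM after irradiation. For both genes the conditions overlapped. Sesn3 ranged from 1.71 to 2.47 TPM.

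Peroxisome import, on which catalase depends, was tested in 9 of 10 genes with a median of 0.20. Pex14, part of the docking complex of the peroxisomal membrane, had 6.81 and 8.42 TPM in the controls and 11.2 and 25.3 TPM in the irradiated libraries, higher in both. Its log2 fold change was 0.98 ± 0.25 with an interval from 0.38 to 1.58 (edgeR adjusted p = 0.708). In edgeR its unadjusted p stayed under 0.05 by library size alone, with DESeq2 size factors and with the replicate block. The edgeR adjusted p in these fits was 0.773, 0.713 and 0.0986. Without irradiated 2 the estimate was 0.54 and without irradiated 1 it was 1.31, each resting on a single irradiated library. Pex13, of the same complex, ranged from 49.7 to 91.6 TPM, with log2 fold change 0.20, and that of Pex7 was -0.0851.

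**Figure D5:**
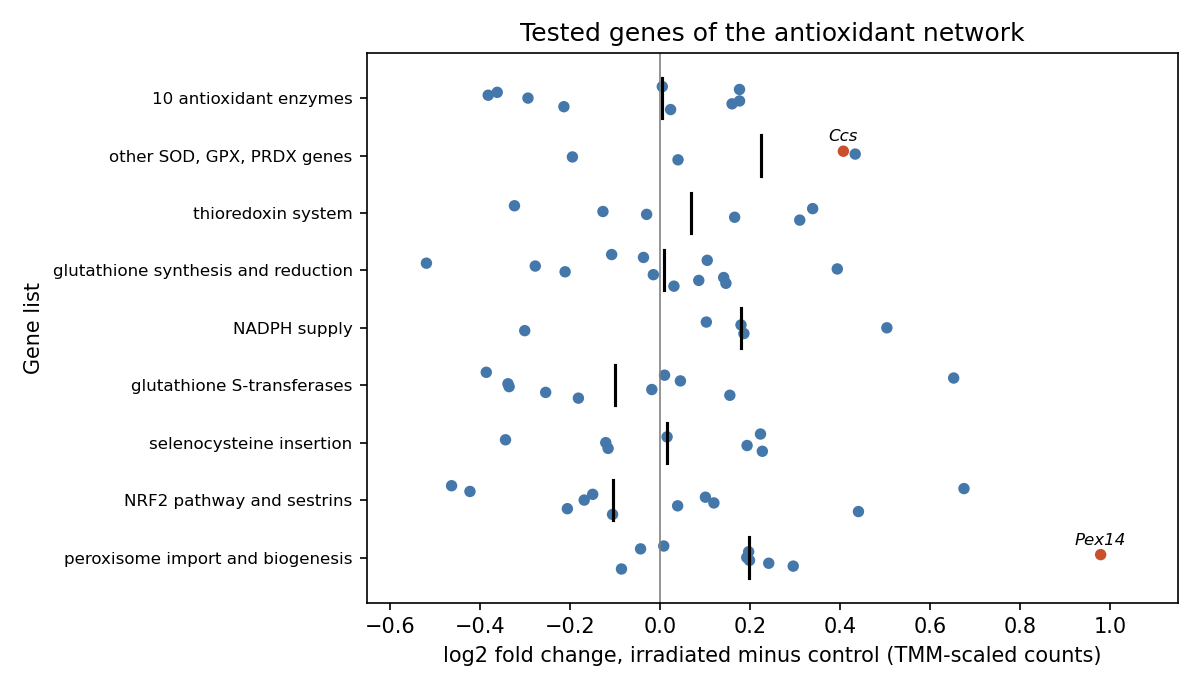
Log2 fold change, irradiated minus control, of each tested gene in the antioxidant set and the 8 related lists, from TMM-scaled counts in edgeR. Vertical bars mark list medians, which lie between -0.10 and 0.22, and orange points mark Ccs and Pex14, the 2 genes with an unadjusted p under 0.05.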

How the data were processed

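Polyadenylated RNA of GV oocytes was compared between 2 control and 2 irradiated libraries, grouped by sample titles. The authors deposited 1 table with an estimated count (not scaled for depth) and a TPM value per RefSeq transcript and library. HISAT2, Bowtie2 and RSEM are named in the submitters' processing notes, without versions or roles, and mm10 is the build. A further 10 columns, of FPKM values and averages, were not used here. Counts and TPM were summed by gene ID (17323 of 17374 IDs matched RefSeq GRCm38.p6), and counts were rounded.

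R 4.3.3 was used. The edgeR release was 4.0.16, and its test was applied to gene totals and to transcripts (low counts removed by filterByExpr, minimum count 10, TMM, glmQLFit, glmQLFTest, no block, Benjamini-Hochberg adjustment over all features tested). Features were called where the adjusted p was under 0.05 and the change exceeded 2 log2 units. The alternatives were DESeq2 1.42.0, its size factors, library size alone, no filter, limma 3.58.1 on log2(TPM + 1) or log2(TPM + 0.1), the replicate block, no fold limit, and each library left out. TPM levels, ranks, shares and list medians carry no test. The p-values rest on the spread between these 4 pooled libraries, which edgeR estimates with all features together. They do not measure the spread between single oocytes. The fit was tested on counts simulated with the same spread in both conditions. That test does not cover a library that stands apart, such as irradiated 2. Figures used matplotlib 3.10.9.

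Members and lists were chosen with earlier results of these data known. Named genes were the 10 members and, from each list, the 3 of highest mean TPM and those with an unadjusted p under 0.05. A gene that this rule names is not reported here. Other genes (Zp2, Ooep, Nobox, Figla, Nlrp5, Srxn1) were named after their values were seen.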

Additional observations from a re-analysis of the deposited data

How the results depend on the processing

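Under each alternative run, 0 antioxidant genes were called, and so were 0 of their transcripts, for which no TPM fit was run, also without the fold limit in the fit of all 4 libraries. Over all genes, the count of 1 became 0 by library size alone and in the 3 TPM fits, 3 without the filter (Fermt1, Frs3 and H4bc24), 4 in DESeq2 (Fermt1, H2bc23, H4bc24 and Ndufa4l2), and between 16 and 51 with a library left out. At an unadjusted p under 0.05 there were 586 genes by library size alone and 217, 236 and 581 in the TPM fits. DESeq2 called 248 transcripts where edgeR called 0 (1306 at an unadjusted p under 0.05). With the replicate block, 7 genes and 0 members were called, 1299 genes against 744 had an unadjusted p under 0.05, and Prdx2 was at -0.42. The deviations of same-numbered libraries correlated at 0.0976 over 12569 genes. There are 2 pairs, too few to show whether the numbers pair the libraries, and no source used here says that they do. Directions turned only near 0 or with a library left out: Gpx1 was at -0.0075 with DESeq2 size factors, -0.0129 in DESeq2 and between -0.0922 and 0.10 with a library left out, Sod1 between -0.60 and 0.0952, Sod2 between -0.0068 and 0.0559, and Cat was at 0.0124 in TPM without a filter. Of the members' other comparisons, 103 kept direction and side of the threshold. The causes were not tested. With 2 libraries per condition, the intervals of Sod1, Prdx1 and Prdx2 span more than 1 log2 unit, and Cat is limited by its 9 or 10 counts.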
